A study of Mus musculus with 6 samples.

Results

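The genes described here encode enzymes of nucleotide and adenosine breakdown in mDCT15, a line of mouse cells of distal convoluted tubule origin. Some of the enzymes act on ATP, AMP or adenosine outside the cell, while those of *Entpd4*, *Entpd5*, *Entpd6* and *Entpd7* act mainly inside it or after secretion. Whether adenosine deaminase, encoded by *Ada*, acted inside or outside these cells was not measured. They are the rows of the deposited gene table whose symbol is *Enpp1*, *Enpp3*, *Entpd1*, *Entpd4*, *Entpd5*, *Entpd6*, *Entpd7*, *Nt5e*, *Alpl* or *Ada*. Of these 10 symbols, 9 had a row among the 20624 genes, and *Entpd4* matched none. RNA from 3 Pkd1-/- samples and 3 wild type samples was sequenced after removal of ribosomal RNA. The Pkd1-/- cells were made by CRISPR-Cas9 editing of the same line. The study's methods give the same serum-containing culture medium for both genotypes and name no treatment of the cells taken for sequencing. The sample titles give the edited cells as Pkd1-/-, while their genotype field reads PKD1 knockdown. Whether the edited line is 1 clone is not given in the sources used here.

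The measurement is the authors' mean normalized count, a single mean per gene over all 6 samples. It holds the Pkd1-/- and wild type samples together, so it gives how much of each transcript the line carried and not how the genotypes differed. No comparison between genotypes was made. The spread between replicates, the value in each sample and the depth of each sample are unknown, and no value below has an error. Gaps between neighbours in any order of levels could therefore not be set against replicate error. The means summed to 16746088 over all genes and had a median of 104.5. Of the genes fixed as markers of the distal convoluted tubule, *Wnk4* (413), *Stk39* (621), *Egf* (48.3), *Trpm6* (29.6) and *Klhl3* (5.70) had a mean normalized count. The defining markers *Slc12a3*, *Pvalb* and *Calb1* had no row among those analysed. Here and below, a gene without a row has no known level. The study's methods name a minimum count per gene and sample, yet the lowest mean kept was 0.618. Of all genes with a row, 1257 had a mean under 1. Why a given gene has no row was not tested. Of 4 epithelial markers, *Epcam* had a mean of 115 and *Krt8* 0.980, and *Cdh1* and *Krt18* had no row. Of 4 proximal tubule markers, *Lrp2* had a mean of 8826, *Cubn* 169, *Slc5a2* 2.77 and *Slc34a1* 2.04. The list of the thick ascending limb had 0 of 2 genes with a row, and the collecting duct list had 2 of 5, *Scnn1g* (0.618) and *Aqp3* (1.95). Of 5 fibroblast markers, *Col1a1* had a mean of 201, *Pdgfrb* 4.48, *Pdgfra* 4.12 and *Col1a2* 2.71, and *Thy1* had no row. The leukocyte list had 2 of 4 genes with a row, *Cd68* (41.9) and *Ptprc* (5.36), and the endothelial list 1 of 3, *Pecam1* (4.68).

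Cells release ATP, which acts on purinergic receptors until enzymes at the cell surface cut it down. Ectonucleotide pyrophosphatases cut ATP to AMP and pyrophosphate, and triphosphate diphosphohydrolases remove its phosphates stepwise through ADP to AMP. Ecto-5′-nucleotidase and alkaline phosphatase turn AMP into adenosine, which has receptors of its own, and adenosine deaminase turns adenosine into inosine. In renal tubules this sequence sets how long ATP and adenosine act on transport in neighbouring cells.

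Of the 9 genes, 6 had levels near or above the middle of the table, and 3 lay far below it. The highest mean normalized counts were those of *Entpd7* and *Entpd5*, and *Enpp1*, *Ada*, *Entpd6* and *Nt5e* followed. *Enpp3*, *Alpl* and *Entpd1* were counted at 10.03, 3.69 and 3.12. The enzyme that is best known for removing ATP at the surface of cells, encoded by *Entpd1* (CD39), thus had the lowest mean of the 9 genes. By the round limit of a mean of 100, 6 of the 9 genes lay above it, against 50.3% of all genes and 72.9% of the 13862 protein-coding genes. A mean under 10 was found for 2 of the 9, against 33.5% of all genes and 14.7% of protein-coding genes. Above the median of all genes lay 5 of the 9, and 2 (*Entpd7* and *Entpd5*) lay above the median of protein-coding genes, 474.

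**Figure D1:**
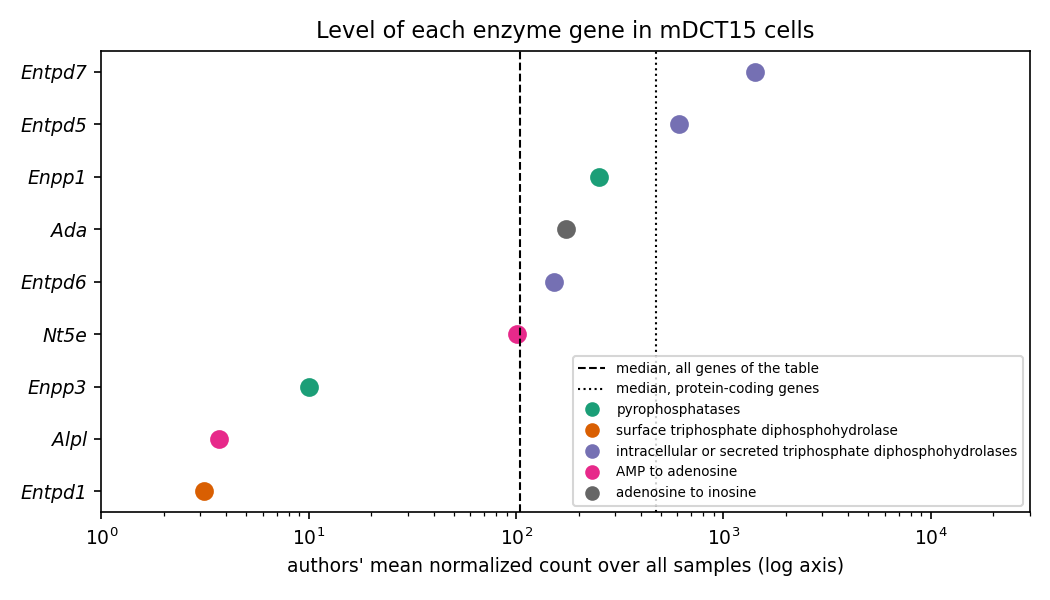
The plot shows the authors' mean normalized count of each of the 9 enzyme genes on a log axis, 1 point per gene, coloured by the reaction of the enzyme, with dashed and dotted lines at the medians of all genes (104.5) and of protein-coding genes (474). *Entpd7* and *Entpd5* sit to the right of both lines, *Nt5e* sits beside the first, and *Enpp3*, *Alpl* and *Entpd1* sit at 10.03 or less. No error bars are drawn, since the table holds a single mean per gene.

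*Entpd4* encodes a triphosphate diphosphohydrolase of the Golgi and lysosomes, and it is the gene for which no level can be given. The GENCODE annotation of GRCm39 places *Entpd4* (ENSMUSG00000095463) on chromosome 14 from 69574623 to 69604719 and a copy, *Entpd4b* (ENSMUSG00000022066), 188 kb further on from 69792873 to 69822969, both on the plus strand. Neither had a row. The reads of the study were 42 bases long, and 0 of the 7541 windows of 42 bases in the exons of *Entpd4* had a single place in the genome. All 7541 windows also occurred in the exons of *Entpd4b*. A read of that length that matches *Entpd4* exactly therefore matches its copy as well, and the part this played in the counting was not tested. In the other 9 genes, from 96.4% (*Entpd5*) to 100% (*Alpl*, all of 4213 windows) of the windows had a single place, so their levels do not rest on reads shared with a copy in this way, as far as exact matches go.

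**Figure D2:**
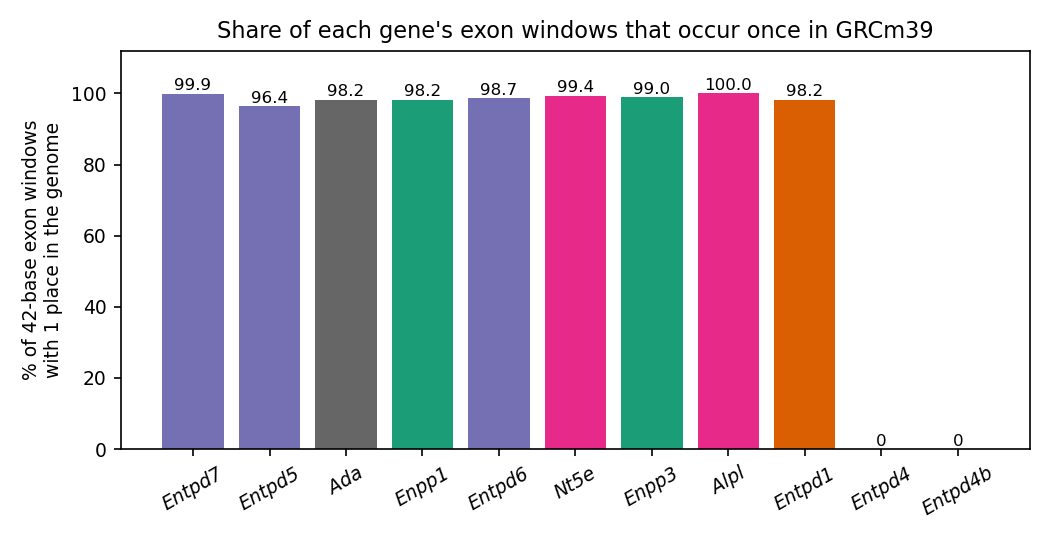
Bars give, for each gene, the percentage of 42-base windows in its exons that occur at 1 place in the GRCm39 genome, counting both strands. The 9 genes with a level stand between 96.4% and 100%, and *Entpd4* and its copy *Entpd4b* stand at 0%.

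Levels of different genes can be compared only per length, since a longer transcript gives more fragments. The mean normalized count was therefore divided by the bases covered by all annotated exons of the gene, in kilobases. On this scale the intracellular or secreted triphosphate diphosphohydrolases held 74.8% of the summed level per kilobase of the 9 genes, adenosine deaminase 11.7%, the pyrophosphatases 8.96%, the enzymes from AMP to adenosine 4.36% and the surface enzyme *Entpd1* 0.155%. The largest gap between neighbours in the order was that between *Nt5e* and *Enpp3*, 11.7-fold, while the other gaps ran from 1.36-fold (*Ada* over *Enpp1*) to 2.10-fold (*Entpd7* over *Entpd5*).

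**Figure D3:**
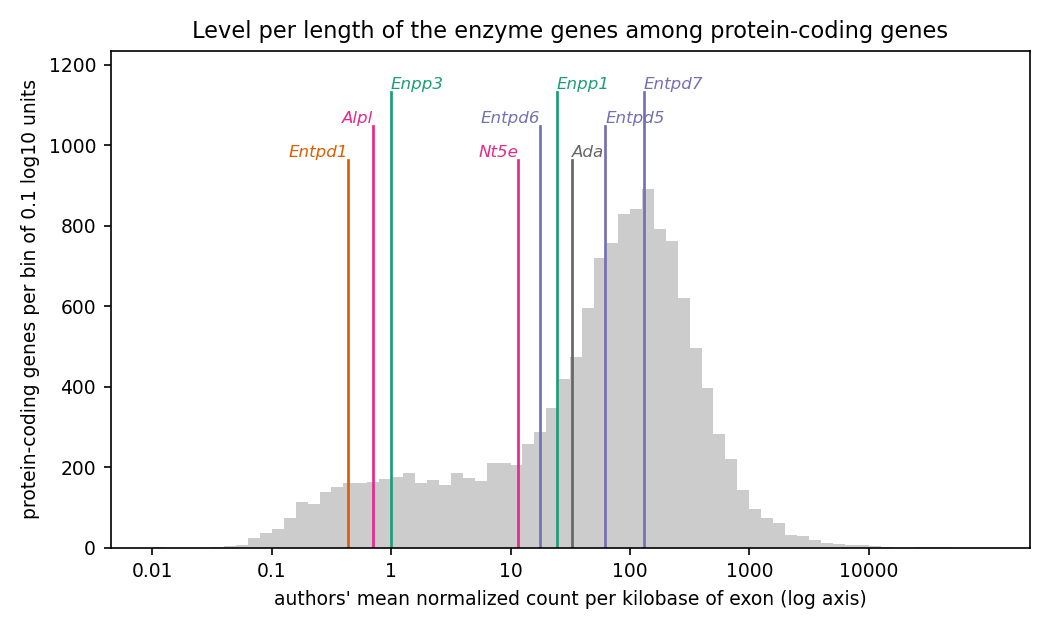
The histogram counts protein-coding genes of the table by their mean normalized count per kilobase of exon, on a log axis with bins of 0.1 log10 units, and vertical lines mark the 9 enzyme genes. *Entpd7* (131 per kilobase) lies near the peak of the histogram, *Nt5e* to *Entpd5* (11.6 to 62.4) on its rising side, and *Entpd1*, *Alpl* and *Enpp3* (0.438 to 0.989) in its low tail.

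The pyrophosphatases are a pair of neighbours in the genome. *Enpp1* (ENSMUSG00000037370), whose product makes pyrophosphate from extracellular ATP, is a minus-strand gene of chromosome 10 between 24513812 and 24588057. *Enpp3* (ENSMUSG00000019989, CD203c), which cuts extracellular nucleotides in a similar way, lies on the same strand from 24648304 to 24718721, so that 60.2 kb separate them. Both have 25 exons in their canonical transcript. Their mean normalized counts were 251 for *Enpp1* and 10.03 for *Enpp3*. *Enpp1* was at 24.3 per kilobase of exon and *Enpp3* at 0.989, a ratio of 24.5 that was 24.4 with the longest transcript and 24.1 with the longest coding sequence as the length.

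*Entpd1* (ENSMUSG00000048120) lies on the plus strand of chromosome 19 from 40600810 to 40731585. Its mean of 3.12 normalized counts was above that of 20.6% of all genes and 8.83% of protein-coding genes. Per kilobase of exon it was at 0.438, and *Enpp1* was 55.4-fold higher. At a mean this low the transcript was barely detected, and its amount relative to *Alpl*, which was 1.62-fold higher per kilobase, was not tested.

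The other triphosphate diphosphohydrolases act mainly inside the cell or after secretion. *Entpd7* (ENSMUSG00000025192), whose product sits in intracellular vesicles, lies on the plus strand of chromosome 19 from 43678087 to 43723653. It had the highest mean of the 9 genes, 1413, above 85.0% of all genes and 77.8% of protein-coding genes. Per kilobase of exon its level was above that of 65.2% of protein-coding genes. *Entpd5* (ENSMUSG00000021236), an enzyme of the endoplasmic reticulum that hydrolyses UDP and helps the folding of glycoproteins, is a minus-strand gene of chromosome 12 between 84420631 and 84455812 and had a mean of 610. *Entpd6* (ENSMUSG00000033068), an enzyme of the Golgi that can be secreted, lies on the plus strand of chromosome 2 from 150590916 to 150613599 and had a mean of 151. Per kilobase of exon, *Entpd7* was 2.10-fold above *Entpd5*, 7.48-fold above *Entpd6* and 299-fold above *Entpd1*. Exons of *Entpd7* share 1961 bases (18.2% of its exon bases) with *Cox15* on the opposite strand, and those of *Entpd5* share 865 bases (8.86%) with *Bbof1* and 137 with *Coq6*. *Cox15*, which encodes an enzyme of haem A synthesis, had a mean normalized count of 1220. Reads from such stretches can be told apart only if strand was used in counting. The study's methods give default parameters for the counting without naming a strand setting, and its effect on these levels was not tested.

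For the step from AMP to adenosine, the transcript with the higher level of the pair was that of *Nt5e* (ENSMUSG00000032420), ecto-5′-nucleotidase or CD73, on the plus strand of chromosome 9 from 88209089 to 88254146. Its mean was 102, at percentile 49.8 of all genes and 27.2 of protein-coding genes. *Alpl* (ENSMUSG00000028766), tissue-nonspecific alkaline phosphatase, which also removes phosphate from ATP, ADP and pyrophosphate, is a minus-strand gene of chromosome 4 between 137469039 and 137524102 and had a mean of 3.69. *Nt5e* was at 11.6 per kilobase of exon and *Alpl* at 0.709, a ratio of 16.3. With the longest transcript or the longest coding sequence as the length, the ratio was 20.5 or 25.2.

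*Ada* (ENSMUSG00000017697), adenosine deaminase, is a minus-strand gene of chromosome 2 between 163565705 and 163592159 and had a mean of 174. Per kilobase of exon it was at 32.9, and 2.84-fold above *Nt5e*, but with the longest transcript as the length the ratio was 1.43. Its exons share 1069 bases (20.2%) with *Pkig* on the opposite strand, which encodes an inhibitor of protein kinase A and had a mean normalized count of 446.

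Other genes of the same enzyme families were taken from a list of 14, of which 5 had a row, 2 of them at a mean of at least 100. These were *Enpp4* (1296) and *Enpp5* (1359). Per kilobase of exon, *Enpp4* was at 246 and *Enpp5* at 175, both above *Entpd7*. *Enpp4* encodes a surface enzyme that cuts diadenosine triphosphate, and *Enpp5* a relative that acts on NAD. They lie on opposite strands of chromosome 17, and their whole gene spans, introns included, overlap by 7535 bases. The exon bases they share were not counted, so whether their counts depend on strand was not tested. *Enpp2* (autotaxin, a lysophospholipase) had a mean of 16.8 and *Entpd8*, a surface triphosphate diphosphohydrolase, 1.40. *Acp3*, listed as Acpp, a phosphatase that can make adenosine from AMP, had 0.794. The surface enzymes *Entpd2* and *Entpd3* had no row among those analysed, and the rest of the list without one comprised *Entpd4b*, *Enpp6*, *Enpp7*, *Alpi*, *Alppl2*, *Akp3* and *Cd38*. With *Entpd1* at 3.12, 2 of the 4 surface triphosphate diphosphohydrolases (*Entpd1*, *Entpd2*, *Entpd3* and *Entpd8*) had a level, neither above a mean of 3.12.

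A list of 22 genes that handle AMP and adenosine beyond these enzymes had 15 with a row, 10 of them at a mean of at least 100 and 4 under 10. Adenosine is carried across membranes by equilibrative transporters, of which *Slc29a1* had a mean normalized count of 1183, *Slc29a3* 657 and *Slc29a2* 159. At which membrane of the cell each of them acts was not measured. Inside the cell, adenosine kinase (*Adk*, 779) returns adenosine to AMP, and AMP deaminases (*Ampd2*, 1403, and *Ampd3*, 366) take AMP further. The cytosolic nucleotidase *Nt5c2* had a mean of 1708, and *Nt5c1a* and *Nt5c1b* had no row among those analysed. *Pnp* (120), the phosphorylase that follows adenosine deaminase, and *Adal* (126), a relative of the deaminase, were also at a mean of at least 100. Among adenosine receptors, *Adora1*, which lowers cAMP, had a mean of 167, while *Adora2b* and *Adora2a*, which raise it, had 9.05 and 3.27. Per kilobase of exon, *Adora1* was at 26.1, *Adora2b* at 4.89 and *Adora2a* at 0.622. *Adora3* and the concentrative transporters *Slc28a1*, *Slc28a2* and *Slc28a3* had no row among those analysed. Per kilobase of exon, *Adk* was at 68.3 and *Ada* at 32.9, and *Slc29a1* was 13.2-fold and *Adora1* 2.25-fold above *Nt5e*.

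The start regions of the 9 genes were read to see what they share in sequence, since the choice of genes did not use it. In the window from 250 bases before to 50 bases from the start of the canonical transcript, CpG dinucleotides were counted and set against the number that the base composition gives. The following sequences are the 100 bases before the start in GRCm39, 5′ to 3′ on the strand of the gene, with CpG in capitals. They were chosen to set the 2 genes of the highest level beside *Nt5e* and the 2 of the lowest.
Entpd7 (chr19:43677987-43678086, plus strand): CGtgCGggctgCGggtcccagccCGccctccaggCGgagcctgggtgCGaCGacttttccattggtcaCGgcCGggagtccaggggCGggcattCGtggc
Entpd5 (chr12:84455789-84455888, minus strand): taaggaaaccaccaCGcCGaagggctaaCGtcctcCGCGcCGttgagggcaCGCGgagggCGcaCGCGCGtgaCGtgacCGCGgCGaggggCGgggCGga
Nt5e (chr9:88208989-88209088, plus strand): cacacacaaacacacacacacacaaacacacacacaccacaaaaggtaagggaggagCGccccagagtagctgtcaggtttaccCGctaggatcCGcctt
Alpl (chr4:137523711-137523810, minus strand): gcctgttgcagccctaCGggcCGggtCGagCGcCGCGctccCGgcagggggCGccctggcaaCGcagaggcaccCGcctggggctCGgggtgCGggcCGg
Entpd1 (chr19:40648114-40648213, plus strand): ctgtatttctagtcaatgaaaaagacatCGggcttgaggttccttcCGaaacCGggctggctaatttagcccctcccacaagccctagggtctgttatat

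In the window around the start, *Entpd5* had 37 CpG and an observed over expected ratio of 1.14, and *Alpl* had 26 and 0.72. *Nt5e* had 5 CpG and a ratio of 0.34, and *Entpd1* 10 and 0.56. By a ratio of at least 0.6, 5 of the 9 (*Entpd5*, *Enpp1*, *Alpl*, *Ada* and *Entpd7*) had a CpG-rich start region, as did 61.4% of the 13862 protein-coding genes of the table. Over those genes the median level per kilobase of exon was 107 with a CpG-rich start region and 21.5 without. The enzyme genes lay below these medians except *Entpd7*, at 131. *Alpl*, at 0.709 per kilobase, was far under the lower quartile of 41.8 for CpG-rich genes. The GC box GGGCGG, searched on both strands, occurred in 5 of the 9 windows (*Entpd5*, *Alpl*, *Entpd7*, *Ada* and *Enpp1*) and in 56.8% of all. The letters of the TATA box, TATAAA, occurred in 2 (*Nt5e* and *Enpp3*) and in 8.27% of all. In neither of these genes did a match lie within the 100 bases before the start. The cAMP response element TGACGTCA occurred in 0 of 9 windows and in 3.17% of all, and the core ACGTG bound by hypoxia-inducible factors in 2 (*Entpd5* and *Enpp1*) and in 24.9%. All motifs were searched on both strands and anywhere in the window, so the matches describe its letters and not binding.

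**Figure D4:**
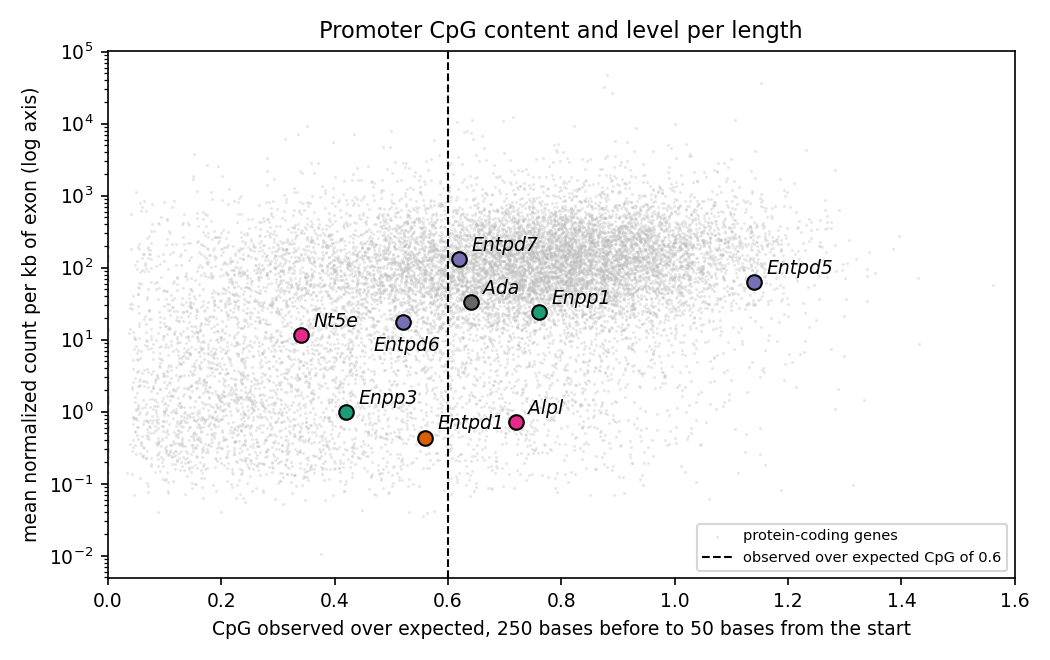
Each grey point is a protein-coding gene, with the observed over expected CpG ratio of its start region on the horizontal axis and its mean normalized count per kilobase of exon on a log vertical axis, and the coloured points are the 9 enzyme genes. *Alpl* lies to the right of the dashed line at 0.6 with a level of 0.709, and *Nt5e* lies to the left of it with a level of 11.6.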

How the data were processed

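RNA of 3 Pkd1-/- and 3 wild type mDCT15 samples, grouped by their titles, was measured by RNA sequencing. The steps of the authors are given here from the submitters' processing notes and the study's methods. The authors trimmed reads with Trim Galore 0.4.5 and mapped them to GRCm39 with an Ensembl annotation with STAR 2.7.5a. They counted reads per gene with HTSeq 0.11.0 at default parameters and normalized the counts with DESeq2 1.22.0 in R 3.5.3. The authors' deposited mean normalized count is a signal over all 6 samples, divided by library size factors and not by gene length. The deposited table also holds the authors' own comparison of the genotypes in 5 columns (a log2 fold change, its standard error, a test statistic, a p-value and an adjusted p-value), which were not used. No column holds values of single samples, and 0 numeric columns went without a stated meaning.

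Exon lengths, gene positions and start sites came from GENCODE M39 on GRCm39, in which 20122 genes (97.6%) were found by identifier. The authors counted reads with an Ensembl annotation of GRCm39, and the effect of this difference on the levels per length was not tested. Windows of 42 bases were counted in the whole genome on both strands, a step tested on simulated sequence. Start regions were read from the same genome. The RefSeq tables, on another build, were not used. Python 3.11.15, numpy 2.4.6, pandas 2.3.3, numba 0.67.0 and matplotlib 3.10.9 were used. No test was run, since a single pooled mean has no replicates. All 10 members are described. From the other lists, genes at a mean of at least 100 or under 1 are named, and the further genes named were chosen after their values were seen. The members and lists were chosen with earlier results of these data known. Alternatives were other gene lengths or no division by length, other reference medians and other limits on the level.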

Additional observations from a re-analysis of the deposited data

How the results depend on the processing

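No paired analysis was possible because the table analysed gives a single mean over all samples, so the genotype fits with and without a replicate block, and the fits without each replicate, were not run. The identity between the members' proteins was not computed, since no protein sequences were used here, and *Entpd4* could not be summed with *Entpd4b*, since neither had a level. *Entpd7* and *Entpd5* kept places 1 and 2, and *Enpp3*, *Alpl* and *Entpd1* places 7, 8 and 9, under all 3 alternatives tried. These were 2 other lengths and no division by length. With the length of the longest transcript, 5 of 9 members kept their place, as *Ada* and *Enpp1*, and *Entpd6* and *Nt5e*, changed places. With the longest coding sequence 7 kept it, as *Enpp1* and *Entpd6* changed places. Without division by length 7 kept it, as *Ada* and *Enpp1* changed places. The number of members above the median was 5 for all genes, 2 for genes with a mean of at least 10, 2 for protein-coding genes and 3 by the mean per kilobase of exon. With a minimum of 200 in place of 100, 3 members passed. With no division by length, the share of the intracellular or secreted triphosphate diphosphohydrolases was 80.0% and that of adenosine deaminase 6.42%. Depth per sample is unknown, and a mean of 3.12 to 10.03 normalized counts, with no error known, cannot order *Enpp3*, *Alpl* and *Entpd1* with certainty.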
